A study of Mus musculus with 15 samples.

Results

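The genes described are those of growth hormone and prolactin cells of the anterior pituitary: the hormone genes Gh and Prl, the stimulatory receptors Ghrhr and Ghsr, and the inhibitory somatostatin receptors Sstr2 and Sstr5. They were taken by symbol from the array annotation, and the 6 genes hold 9 of 45037 probe sets and are 6 of 18193 named genes. Gh has 4 probe sets and each of the other genes has 1. RNA of pituitaries from newborn mice (postnatal day 1) was pooled within a genotype and hybridised to Affymetrix Mouse Genome 430 2.0 arrays, 1 array per pool. Each of 3 groups has 5 pools. Mice of the group labelled Prop1df/df are on the DF/B background. Pit1dw/dw mice are homozygous for the Snell dwarf allele of Pit1, and Pit1+/+ mice are their wild type, both on DW/J. All mice were fed high fat chow. The dw allele is inherited and acts in every cell that uses the gene. Wild-type pools on DF/B were not analysed here, so in each comparison that uses Prop1df/df the genotype and the strain background cannot be told apart. How many pituitaries went into each pool is not stated in the labels.

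Pit1 (gene symbol Pou1f1) is a POU-homeodomain factor required for growth hormone, prolactin and thyrotropin cells to form. Somatotrophs make growth hormone and are driven by growth hormone releasing hormone through Ghrhr, which raises cyclic AMP, and by ghrelin through Ghsr. Somatostatin restrains them through its receptors, Sstr2 and Sstr5 among them. Lactotrophs make prolactin, are restrained by dopamine through Drd2, and in the mouse become numerous only after birth.

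Array medians ran from 4.31 to 4.43 log2 units, and the number of arrays limits the precision. The mutated genes themselves were not analysed here. Pool 1 of Pit1+/+ carries a genotype entry of Prop1df/df, whereas its strain, source and title all name Pit1+/+ or DW/J. It was kept in the group of its title, and leaving it out ended no call among the 6 genes in either comparison with Pit1+/+. Hesx1, an early pituitary homeobox gene, was 4.40 to 5.93 in the 5 Prop1df/df pools, 2.56 to 3.15 in Pit1dw/dw and 2.79 to 3.05 in Pit1+/+, that pool 1 included. Pax7, a melanotroph factor, was 5.45 to 6.22 in Prop1df/df, 8.04 to 8.40 in Pit1dw/dw and 7.95 to 8.47 in Pit1+/+. For these 2 genes all 5 Prop1df/df pools lay apart from all other pools. Over all genes, 8.01% did not overlap between Prop1df/df and Pit1+/+ and 8.5% did not between Prop1df/df and Pit1dw/dw. Pax7 was added after its values were seen, so these 2 genes are a description and no check of a pool's genotype. For Gh and the thyrotropin gene Tshb the Prop1df/df pools did not lie together: pools 1, 2 and 3 were high and pools 4 and 5 were low. For Ghrhr pools 2 and 3 were highest, pools 4 and 5 lowest, and pool 1 lay between them, nearer to pools 4 and 5. Because that division shows in the measured genes themselves, no test was made between these pools, and their values are given one by one. The genotype of the single pools was not checked here, so the Prop1df/df means of these genes are means over unlike pools whose difference has no known source.

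The sequence before the start of Prl is shown because Prl is the hormone gene of the 6 with a promoter in the RefSeq table and was lower in both mutants, and that of Sstr2 because it was lower in Prop1df/df. Of the 6 genes, 3 had a promoter there, namely Prl, Ghsr and Sstr2. Each line gives the 250 bases before the annotated start, 5′ to 3′, in build GRCm38.p6. Capitals in Prl mark matches to TATNCAT, a form of the A/T-rich site that Pit1 binds, searched on both strands. Capitals in Sstr2 mark TGACGTCA, the palindromic cyclic AMP response element, a motif chosen after the sequence was seen. Prl lies on the + strand at chr13:27057320-27057569 and Sstr2 on the + strand at chr11:113619077-113619326.
Prl: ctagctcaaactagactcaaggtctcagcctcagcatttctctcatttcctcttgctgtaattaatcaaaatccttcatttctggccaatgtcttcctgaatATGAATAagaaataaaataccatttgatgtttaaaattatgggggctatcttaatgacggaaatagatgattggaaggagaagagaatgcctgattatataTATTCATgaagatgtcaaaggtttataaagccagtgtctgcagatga
Sstr2: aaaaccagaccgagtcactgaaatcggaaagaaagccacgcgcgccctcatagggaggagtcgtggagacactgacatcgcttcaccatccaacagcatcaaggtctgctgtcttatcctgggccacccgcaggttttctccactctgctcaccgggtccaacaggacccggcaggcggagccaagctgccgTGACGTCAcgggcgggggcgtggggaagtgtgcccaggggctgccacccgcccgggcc

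Prl had 2 matches to TATNCAT, one on the reverse strand from 148 to 142 bases before the start and one on the forward strand from 47 to 41 bases before it. Of 32851 promoters of the same length, 7.92% held at least 1 match and 1.26% held 2 or more. Neither Sstr2 nor Ghsr had a match. TGACGTCA occurred once in Sstr2, from 58 to 51 bases before the start, and in 1.55% of the promoters, and neither Prl nor Ghsr had it. G and C made up 35.2% of the Prl stretch and 63.6% of the Sstr2 stretch, against a median of 52.4% over all promoters. A match is a run of letters and not a shown binding site.

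The loss of Pit1 within 1 strain is the question of Pit1dw/dw against Pit1+/+. Of the 6 genes, 4 fell in Pit1dw/dw (Gh, Prl, Ghrhr and Sstr5), none rose, and Ghsr and Sstr2 did not pass. Over all genes 0.605% passed as lower and 0.165% as higher. Prop1df/df against Pit1+/+ compares the other mutant with the same wild type, across 2 strains. Again 4 of the 6 fell, namely Prl, Ghrhr, Sstr2 and Sstr5, none rose, and Gh and Ghsr did not pass, where 7.31% of all genes passed as lower and 3.25% as higher. No pool of Pit1dw/dw reached into the range of Pit1+/+ for 4 genes, Gh, Prl, Ghrhr and Sstr5, as for 2.78% of all genes. No pool of Prop1df/df did so for 4 genes, Gh, Prl, Ghrhr and Sstr2, as for 8.01% of all genes. These 2 comparisons share the Pit1+/+ pools. The median difference of the 6 genes was -0.94 in Pit1dw/dw and -1.05 in Prop1df/df, beside -0.02 and -0.04 over all genes. In Prop1df/df against Pit1dw/dw, Gh was the 1 gene of the 6 that passed, as higher in Prop1df/df, where 2.21% of all genes passed as higher and 4.05% as lower. All 6 genes overlapped between the mutants, while 8.5% of all genes did not. Pituitaries were pooled whole, so fewer cells of a type and less RNA per cell cannot be told apart.

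**Figure D1:**
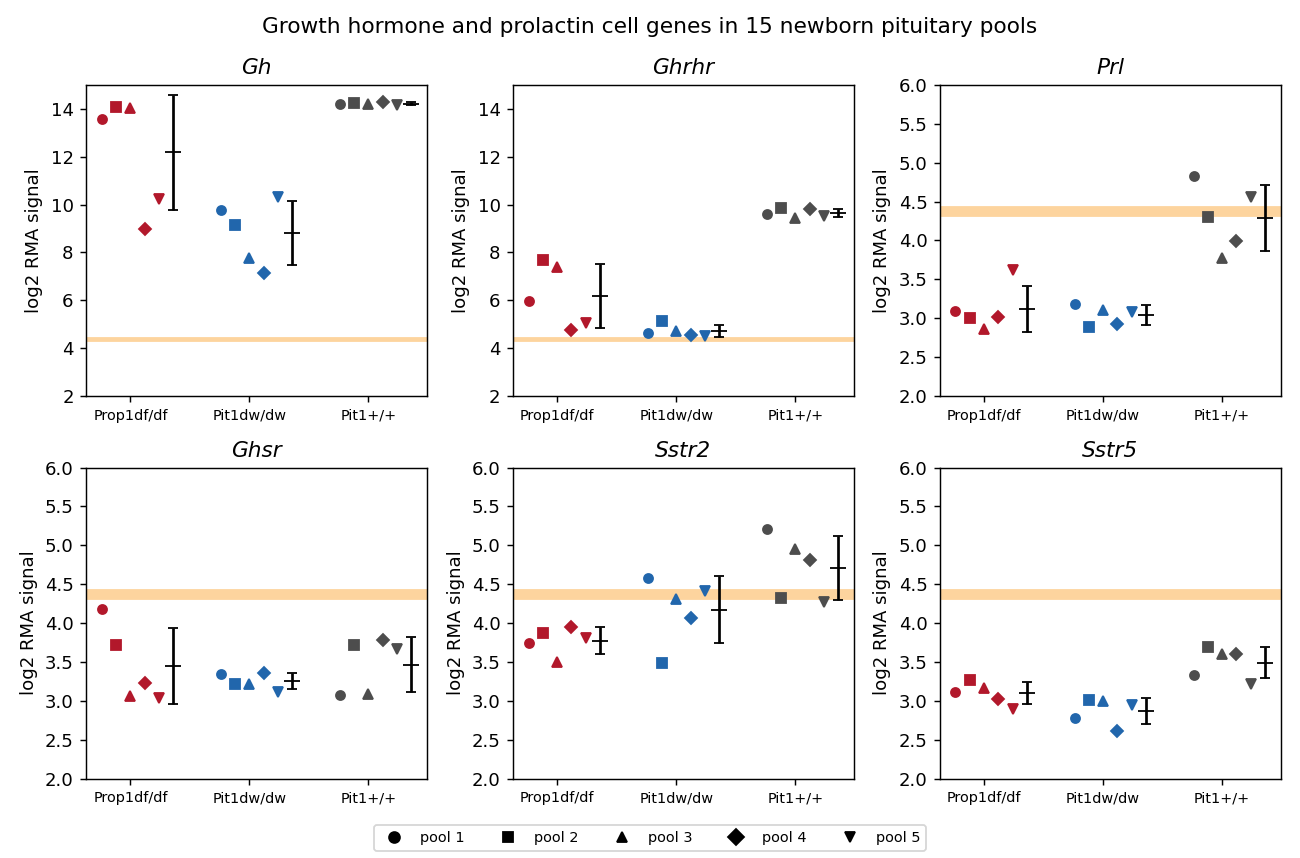
Log2 RMA signal of the 6 genes (vertical axis; 2 to 15 for Gh and Ghrhr, 2 to 6 for the others) in 5 pools each of Prop1df/df, Pit1dw/dw and Pit1+/+, with 1 symbol per pool number, the group mean and SD as a black bar beside the points, and the span of array medians, 4.31 to 4.43, as a band. Gh of Prop1df/df divides into pools 1 to 3 and pools 4 and 5, Ghrhr of Prop1df/df spreads with pool 1 between the 2 highest and the 2 lowest pools, and every value of Ghsr and Sstr5 lies below the band.

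Growth hormone itself was at the top of the scale in wild type and far lower in Pit1dw/dw. On its brightest probe set Gh was 9.76, 9.13, 7.75, 7.15 and 10.31 log2 units in Pit1dw/dw pools 1 to 5. It was 14.22, 14.26, 14.19, 14.28 and 14.15 in Pit1+/+ pools 1 to 5. The groups did not overlap, and the pools covered 3.16 log2 units in Pit1dw/dw against 0.13 in Pit1+/+. The group means were 8.82 ± 1.33 in Pit1dw/dw and 14.22 ± 0.05 in Pit1+/+ (SD, n = 5 each), a log2 difference of -5.40 (SE 0.88, adjusted p = 0.00586). In each Pit1+/+ pool either no probe set or 1 other probe set of the array was brighter than this one. A wild-type level above the range of the array, or a spread of such levels, would not show, so the spreads of the 2 groups cannot be compared. The difference is therefore at least 42.2-fold.

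In Prop1df/df the Gh pools divided. The same probe set read 13.58, 14.07, 14.03, 8.99 and 10.24 in Prop1df/df pools 1 to 5. Pools 1 to 3 lay within 1 log2 unit of the wild-type pools but below each of them, and pools 4 and 5 lay inside the range of Pit1dw/dw. The mean of 12.18 ± 2.39 in Prop1df/df against 14.22 ± 0.05 in Pit1+/+ gave a log2 difference of -2.04 (SE 0.88, adjusted p = 0.165), which did not pass although no pools overlapped. Without single pools it ran from -2.51 to -1.24, with -1.24 without Prop1df/df pool 4, and did not pass in any alternative. With wild type at the top of the scale the size of this difference is a lower bound, so the missed threshold does not show that Gh was alike. Against Pit1dw/dw, Gh was higher in Prop1df/df by 3.36 (SE 0.88, adjusted p = 0.0319), with overlapping groups. In Prop1df/df pools 2 and 3 no probe set of the array was brighter, so this difference too may be understated. That call ended without Prop1df/df pool 1 (adjusted p = 0.0881), 2 (0.0901) or 3 (0.0646) and without Pit1dw/dw pool 2 (0.0599), 3 (0.0837) or 4 (0.0932). It also ended without the pools high in the sensory neuron gene Prph (0.0627) and with the level of Xist, the RNA of X inactivation, as a covariate (0.0784). Over all alternatives the adjusted p ran from 0.00311 to 0.0932.

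The 4 probe sets of Gh differed in range. The dimmest of them read 6.67, 6.54, 4.96, 4.04 and 6.65 in Pit1dw/dw pools 1 to 5, which is 0.138% to 0.854% of the wild-type mean on the linear scale. The brightest, the one described above, stood at 0.745% to 6.65% in the same pools. The 2 shares thus differ for the same RNA. In Prop1df/df pools 1, 2 and 3 the dimmest probe set stood at 31.8%, 58.7% and 57.9% of the wild-type mean, and the brightest at 64.4%, 89.8% and 87.8%. Pools 4 and 5 stood at 0.453% and 0.865% on the first and at 2.67% and 6.32% on the second. As probe sets fitted one by one, all 4 fell in Pit1dw/dw, with log2 differences of -7.77 to -5.40 (adjusted p = 0.00381 to 0.00933; 0.286% of all probe sets passed as lower). In Prop1df/df against Pit1+/+ none of the 4 passed, with differences of -3.57 to -2.04 (adjusted p = 0.0815 to 0.195; 4.61% of all probe sets passed as lower). Between Prop1df/df and Pit1dw/dw 3 of them passed as higher, as did 2.08% of all probe sets, and the dimmest did not (4.20, SE 1.17, adjusted p = 0.0508). All but 1 of the 4 end in _x_at, a type that can share probe sequence with other transcripts, and the other ends in _a_at.

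**Figure D2:**
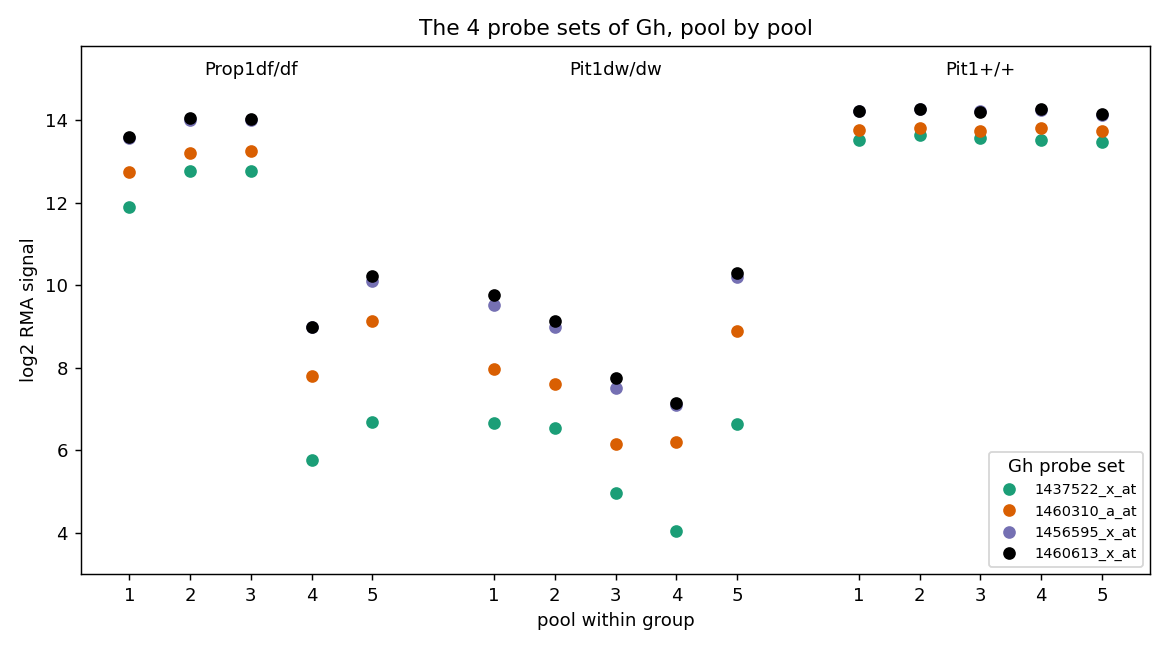
Log2 RMA signal of the 4 Gh probe sets (vertical axis, 1 colour each) in pools 1 to 5 of Prop1df/df, Pit1dw/dw and Pit1+/+ (horizontal axis). The points lie close together near the top in Pit1+/+, lowest in Pit1dw/dw pools 3 and 4, and lower in pools 4 and 5 than in pools 1 to 3 of Prop1df/df. Pools within a group have no order.

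Prolactin was dim in all groups and lower in both mutants. Prl read 3.19, 2.88, 3.11, 2.92 and 3.09 in Pit1dw/dw pools 1 to 5, against 4.83, 4.30, 3.78, 3.99 and 4.56 in Pit1+/+ pools. It read 3.09, 3.00, 2.87, 3.02 and 3.62 in Prop1df/df pools 1 to 5. Every mutant pool was below every wild-type pool, and the highest mutant value was that of Prop1df/df pool 5, one of the 2 pools low in Gh. The log2 difference from Pit1+/+ was -1.25 in Pit1dw/dw (SE 0.18, adjusted p = 0.00259) and -1.17 in Prop1df/df (SE 0.18, adjusted p = 0.000663). Since the mutant pools sat at the 16.8 to 25.5 percentile of their arrays in Pit1dw/dw and at 16.5 to 34.9 in Prop1df/df, near the lower end of each array's values, these are at least 2.38-fold and at least 2.25-fold lower. The Pit1+/+ pools themselves sat at the 42.5 to 55.6 percentile, so Prl was not bright in wild type either. Between the mutants Prl did not differ past the threshold (0.08, SE 0.18, adjusted p = 0.851). Signals this low cannot show whether the Prop1df/df pools divide for Prl as they do for Gh. No gene of the 17 measured members of the placental prolactin family passed in any of the 3 comparisons, and 8 of the 25 listed had no probe set with a single name.

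The receptor for growth hormone releasing hormone fell in both mutants. Ghrhr read 4.62, 5.13, 4.69, 4.56 and 4.52 in Pit1dw/dw pools 1 to 5, against 9.59, 9.85, 9.45, 9.81 and 9.54 in Pit1+/+ pools. It read 5.98, 7.69, 7.38, 4.77 and 5.06 in Prop1df/df pools 1 to 5. Neither mutant overlapped with wild type. Prop1df/df pools 4 and 5 were the lowest of their group, as for Gh, but pool 1 lay nearer to them than to pools 2 and 3. Ghrhr was 30.8-fold lower in Pit1dw/dw (log2 difference -4.94, SE 0.44, adjusted p = 2.89e-05) and 11.1-fold lower in Prop1df/df (-3.47, SE 0.44, adjusted p = 0.000117). Both calls held in every alternative run. In Pit1dw/dw the values stood at the 52.0 to 59.3 percentile of their arrays, close above the array medians. The mutants did not differ past the threshold (1.47, SE 0.44, adjusted p = 0.0622). That difference passed with the replicate block (adjusted p = 0.0363) and with array weights (0.0119), and without Prop1df/df pool 4 (0.0122) or 5 (0.0298), and across the alternatives the adjusted p lay between 0.0119 and 0.135.

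Shares of the wild-type signal on the linear scale show each pool's place for genes of the Pit1 lineage. In Prop1df/df pools 1 to 3 Ghrhr stood at 7.87%, 25.7% and 20.7% of the Pit1+/+ mean, Tshb at 23.7%, 24.7% and 21.3%, and Gh, on its _a_at probe set, at 49.2%, 67.8% and 70.3%. In Prop1df/df pools 4 and 5 the same genes stood at 3.39% and 4.16% for Ghrhr, at 2.02% and 3.75% for Tshb and at 1.61% and 3.99% for Gh. The Pit1dw/dw pools lay at 2.86% to 4.36% for Ghrhr, 1.92% to 3.36% for Tshb and 0.513% to 3.41% for Gh. So pools 4 and 5 of Prop1df/df lay within or near the Pit1dw/dw range for all 3 genes. An array signal has an upper limit and holds background, so these shares are shares of signal and not of RNA. The share of Gh depends on the probe set, at 31.8% to 64.4% in Prop1df/df pool 1, and its wild-type level lies near the top of the scale, so unlike shares of Gh, Ghrhr and Tshb do not show that their RNA fell by unlike amounts. Prph, a marker of sensory ganglion neurons, was 4.96, 4.21, 10.46, 8.93 and 3.38 in Prop1df/df pools 1 to 5, so it was high in 1 pool high in Gh and in 1 pool low in Gh. Xist was 8.55 to 11.23 in the Prop1df/df pools. In Pit1dw/dw it was 4.20 and 3.89 in pools 2 and 3 and 9.60 or more in the others. The part of ganglion RNA and of Xist in the Gh values was not tested beyond the covariate and the pools left out.

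**Figure D3:**
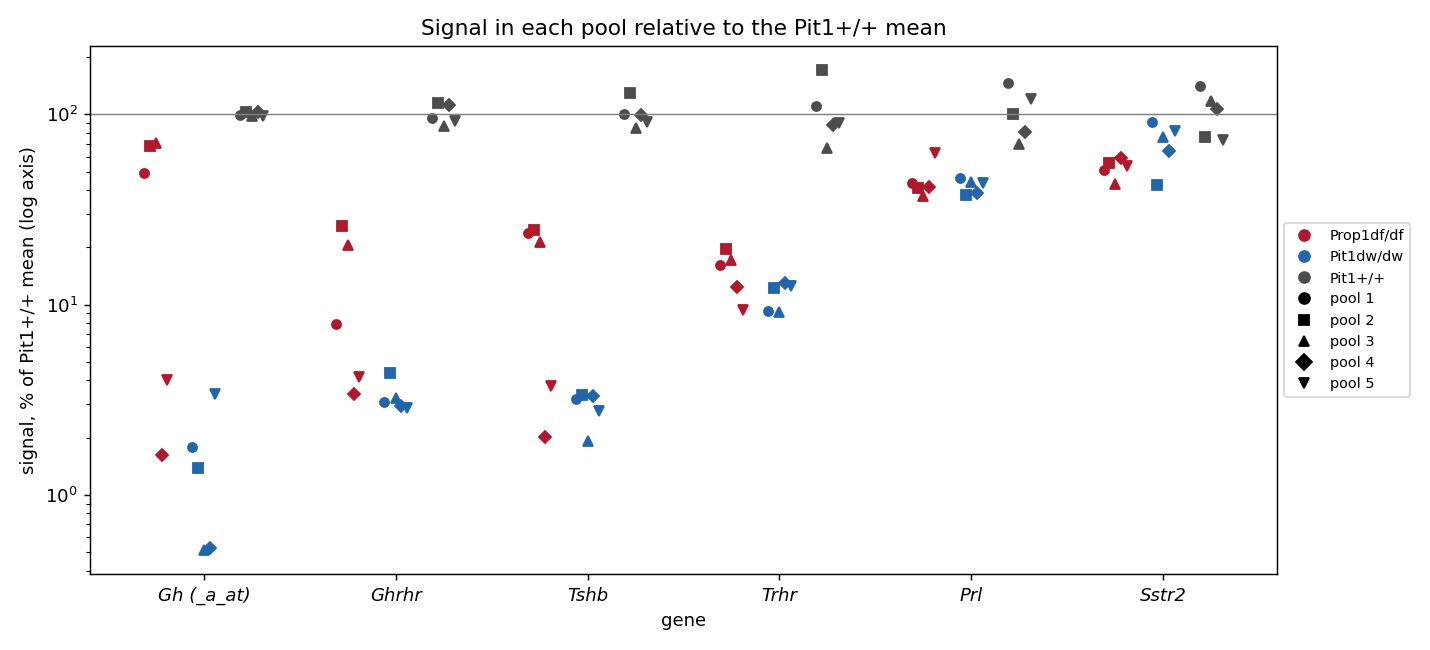
Signal of Gh (its _a_at probe set), Ghrhr, Tshb, Trhr, Prl and Sstr2 in each pool as a percent of the Pit1+/+ mean (vertical log axis), for Prop1df/df, Pit1dw/dw and Pit1+/+ pools with 1 symbol per pool number. Prop1df/df pools 1 to 3 lie far above pools 4 and 5 for Gh and Tshb, at 21.3% or more against 3.99% or less. For Sstr2 the 5 pools lie close together, at signals below their array medians that are too low to show such a division.

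Ghsr, the ghrelin receptor, showed no change past the threshold. It read 4.18, 3.72, 3.06, 3.23 and 3.04 in Prop1df/df pools, 3.34, 3.22, 3.22, 3.36 and 3.12 in Pit1dw/dw pools, and 3.08, 3.72, 3.08, 3.78 and 3.67 in Pit1+/+ pools. All 15 values were below the median of their own array, and the 3 groups overlapped. The log2 difference from Pit1+/+ was -0.21 in Pit1dw/dw (SE 0.21, adjusted p = 0.885) and -0.02 in Prop1df/df (SE 0.21, adjusted p = 0.968), and the sign of the second changed between alternatives. A change of Ghsr was not detected, which does not show that there was none.

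The somatostatin receptors of the set are G-protein-coupled receptors that lower cyclic AMP. Sstr2 was dim in both mutants and close above the array medians in wild type, and Sstr5 was dim in all groups. Sstr2 read 3.75, 3.87, 3.49, 3.95 and 3.80 in Prop1df/df pools 1 to 5, against 5.21, 4.32, 4.95, 4.81 and 4.27 in Pit1+/+ pools. The groups did not overlap, and the Prop1df/df pools lay close together. Pools 1 to 3 stood at 51.3%, 55.7% and 43.1% of the wild-type mean and pools 4 and 5 at 59.1% and 53.4%. As for Prl, signals this low cannot show whether the Prop1df/df pools divide for Sstr2. Sstr2 fell by 0.94 on the log2 scale in Prop1df/df (SE 0.21, adjusted p = 0.00845), and since all 5 values lay below their array medians this is at least 1.92-fold. In Pit1dw/dw pools it read 4.58, 3.48, 4.32, 4.07 and 4.41, overlapping with wild type, and the difference of -0.54 did not pass (SE 0.21, adjusted p = 0.442). With array weights that difference was -0.84 (adjusted p = 0.0250), and across the alternatives the adjusted p lay between 0.0250 and 0.901. The 2 mutants did not differ past the threshold for Sstr2 (-0.40, SE 0.21, adjusted p = 0.307).

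Sstr5 read 2.78, 3.01, 2.99, 2.61 and 2.94 in Pit1dw/dw pools 1 to 5, against 3.34, 3.69, 3.60, 3.60 and 3.22 in Pit1+/+ pools. It read 3.11, 3.27, 3.17, 3.03 and 2.90 in Prop1df/df pools. Every value lay below the median of its array, at the 6.8 to 40.5 percentile over the 15 pools, so the signal is near the floor in all groups. Pit1dw/dw did not overlap with wild type, and Prop1df/df pool 2 did. The difference from Pit1+/+ was -0.62 in Pit1dw/dw (SE 0.12, adjusted p = 0.0194) and -0.40 in Prop1df/df (SE 0.12, adjusted p = 0.0435). The first call ended without Pit1dw/dw pool 1 (adjusted p = 0.0566) or 4 (0.0620) and without Pit1+/+ pool 2 (0.0623) or 4 (0.0647), and across the alternatives its adjusted p lay between 0.00363 and 0.196. The second ended without Prop1df/df pool 1 (adjusted p = 0.0784), 4 (0.0824) or 5 (0.106), without Pit1+/+ pool 2 (0.112), 3 (0.0912) or 4 (0.101), and with every probe set fitted on its own (0.0568). Across the alternatives its adjusted p lay between 0.0135 and 0.183.

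Of the other somatostatin receptors, Sstr1, Sstr3 and Sstr4, only Sstr3 passed in any of the 3 comparisons. Over all genes 7.31% passed as lower in Prop1df/df against Pit1+/+ and 4.05% against Pit1dw/dw. Sstr3 was 4.80 ± 0.40 in Prop1df/df, 6.23 ± 0.24 in Pit1dw/dw and 5.97 ± 0.51 in Pit1+/+ (SD, n = 5 each). It fell in Prop1df/df against Pit1+/+ (-1.16, SE 0.23, adjusted p = 0.00404) and did not pass in Pit1dw/dw (0.26, SE 0.23, adjusted p = 0.868). Prop1df/df was also lower than Pit1dw/dw (-1.42, SE 0.23, adjusted p = 0.00113), with no overlap between these 2 groups. The fall against Pit1+/+ was -0.44 when the gene's probe sets were averaged (adjusted p = 0.108), the 1 of 22 alternatives in which it did not pass. Among 12 genes for the ligands of these receptors and other peptides, Ghrh, Sst and Ghrl among them, none passed in Pit1dw/dw, where 0.605% of all genes passed as lower, and Gal and Oxt fell in Prop1df/df, where 7.31% did. The galanin gene Gal was 5.66 ± 0.98 in Prop1df/df, 7.48 ± 0.42 in Pit1dw/dw and 7.11 ± 0.45 in Pit1+/+ (SD, n = 5 each), and its fall against Pit1+/+ was -1.46 (SE 0.38, adjusted p = 0.0209). The Gal call ended in 3 of 22 alternatives, without Prop1df/df pool 2, without Pit1+/+ pool 2 and with only these 2 groups in the fit, where the adjusted p reached 0.0608. The oxytocin gene Oxt was 4.03 ± 0.30 in Prop1df/df, 3.91 ± 0.06 in Pit1dw/dw and 4.49 ± 0.20 in Pit1+/+ (SD, n = 5 each). It was thus dim in both mutants, and Prop1df/df overlapped with Pit1+/+. The fall of Oxt was -0.47 (SE 0.14, adjusted p = 0.0398), a call that ended in 12 of 21 alternatives. Without single pools the adjusted p of Oxt ran from 0.00716 to 0.106.

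Most measured receptors for other signals to these cells did not pass. Of 19, 2 fell and none rose in Pit1dw/dw, where 0.605% of all genes passed as lower. In Prop1df/df 5 fell and 1 rose, where 7.31% of all genes passed as lower and 3.25% as higher. Trhr, the thyrotropin releasing hormone receptor, and Rxrg, a retinoid X receptor, fell in both, with log2 differences of -3.17 and -2.27 in Pit1dw/dw (adjusted p = 1.27e-05 and 0.000947) and of -2.79 and -1.91 in Prop1df/df (adjusted p = 2.30e-06 and 0.000556). Both genes were dim in both mutants, so the sizes of these falls are lower bounds. Drd2, a dopamine receptor, read 4.75, 5.29, 5.06, 5.40 and 4.85 in Prop1df/df pools, 6.14, 6.89, 6.96, 7.01 and 6.78 in Pit1dw/dw pools, and 6.95, 7.11, 7.01, 6.59 and 5.68 in Pit1+/+ pools. Prop1df/df lay below all other pools. Drd2 fell in Prop1df/df against Pit1+/+ (-1.60, SE 0.25, adjusted p = 0.000589) and was lower there than in Pit1dw/dw (-1.68, SE 0.25, adjusted p = 0.000478), while Pit1dw/dw did not differ from Pit1+/+ past the threshold (0.08, SE 0.25, adjusted p = 0.979). Markers of other cells moved in the same group against Pit1+/+. The melanotroph factor Pax7 fell in Prop1df/df (-2.28, adjusted p = 7.59e-08) and, like Drd2, did not pass in Pit1dw/dw (-0.02, adjusted p = 0.991). Of 4 gonadotroph markers, Lhb (-3.31, adjusted p = 0.0111) and Fshb (-2.72, adjusted p = 0.00994) fell in Prop1df/df. The others, Gnrhr (0.33, adjusted p = 0.412) and Nr5a1 (0.30, adjusted p = 0.425), did not pass there. Both passed as higher in Pit1dw/dw against Pit1+/+ (1.49 and 1.38, adjusted p = 0.00392 and 0.00384). The log2 of the summed level of the 4 was 7.81 to 8.80 in Prop1df/df, 9.12 to 10.97 in Pit1dw/dw and 8.94 to 10.81 in Pit1+/+. The shared glycoprotein hormone subunit gene Cga fell in Prop1df/df (-1.53, adjusted p = 0.000381). Of 5 measured bone and cartilage markers, Col2a1 rose (1.84, adjusted p = 0.00463), and the log2 of their summed level was 12.89 to 13.48 in Prop1df/df, 12.49 to 13.06 in Pit1dw/dw and 11.81 to 13.06 in Pit1+/+. Their part in the values of these receptors was not tested. The estrogen receptor Esr1 and the IGF receptor Igf1r were, like Drd2, lower in Prop1df/df than in Pit1+/+ by -1.24 and -0.89 (adjusted p = 0.000388 and 0.00963) and than in Pit1dw/dw by -0.95 and -0.96 (adjusted p = 0.00417 and 0.00878). The glucocorticoid receptor Nr3c1 rose in Prop1df/df by 0.74 (SE 0.18, adjusted p = 0.0143). When all probe sets of a gene were averaged, the difference between Prop1df/df and Pit1+/+ was -0.20 for Igf1r (adjusted p = 0.296), -0.64 for Esr1 (0.00262), -1.40 for Trhr (6.81e-06) and 0.09 for Nr3c1 (0.644), and that of Trhr in Pit1dw/dw was -1.69 (adjusted p = 1.44e-05). The Igf1r call between the mutants ended in 2 of 22 alternatives, with its probe sets averaged (-0.20, adjusted p = 0.340) and without the pools high in Prph.

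Below Ghrhr, none of 27 measured genes of the cyclic AMP pathway passed in Pit1dw/dw with limma, and 1 had an unadjusted p under 0.05. In Prop1df/df 4 fell and none rose, where 7.31% of all genes passed as lower. They were the adenylate cyclases Adcy5 (-0.66, adjusted p = 0.0443) and Adcy6 (-0.60, adjusted p = 0.00800), the kinase regulatory subunit Prkar2b (-0.87, adjusted p = 0.00422) and the transcriptional regulator Crem (-0.82, adjusted p = 0.0184). The Adcy5 call ended in 11 of 22 alternatives and that of Crem in 4 of 22. No gene of this list passed between the mutants. The median of the list was -0.05 in Pit1dw/dw and -0.22 in Prop1df/df, beside -0.02 and -0.04 over all genes.

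Of 12 measured transcription factors of the lineage, 1 fell in Pit1dw/dw, where 0.605% of all genes passed as lower. In Prop1df/df 2 fell and 1 rose, where 7.31% of all genes passed as lower and 3.25% as higher. Neurod4, a bHLH factor of these cells, fell in both mutants. It was 8.75 ± 1.29 in Prop1df/df, 7.85 ± 0.73 in Pit1dw/dw and 10.72 ± 0.31 in Pit1+/+ (SD, n = 5 each). The differences from Pit1+/+ were -1.97 in Prop1df/df (SE 0.49, adjusted p = 0.0166) and -2.87 in Pit1dw/dw (SE 0.49, adjusted p = 0.00881). Gata2, a factor of thyrotrophs and gonadotrophs, fell in Prop1df/df (-1.29, SE 0.23, adjusted p = 0.00179) and Hesx1 rose there (2.51, SE 0.23, adjusted p = 5.99e-06). In Prop1df/df against Pit1dw/dw 1 passed as higher and 2 as lower, where 2.21% of all genes passed as higher and 4.05% as lower. They were Hesx1 (2.56, adjusted p = 5.94e-06), Gata2 (-1.08, adjusted p = 0.00850) and Otx1 (-0.43, adjusted p = 0.0215). Otx1 passed in this comparison only. Its means were 2.65 in Prop1df/df and 3.08 in Pit1dw/dw, both far below the array medians, and it lost the call in 7 of 21 alternatives.

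Growth hormone and prolactin signal through JAK2 and STAT5, and SOCS2 is a feedback inhibitor induced by growth hormone. Of 11 measured genes of this signalling, Socs2 was the 1 that passed in Pit1dw/dw, where 0.605% of all genes passed as lower. It fell there and rose in Prop1df/df. In Prop1df/df 2 other genes of the 11 fell, where 7.31% of all genes passed as lower and 3.25% as higher. Socs2 read 10.54, 10.66, 10.34, 10.70 and 10.99 in Prop1df/df pools 1 to 5, 8.34, 8.86, 8.83, 8.38 and 8.13 in Pit1dw/dw pools, and 9.82, 10.03, 9.87, 9.73 and 9.98 in Pit1+/+ pools. The 3 groups did not overlap. It fell in Pit1dw/dw (-1.38, SE 0.15, adjusted p = 0.000244) and rose in Prop1df/df (0.76, SE 0.15, adjusted p = 0.00400), and Prop1df/df was above Pit1dw/dw by 2.14 (SE 0.15, adjusted p = 3.28e-07). Prop1df/df pools 4 and 5, low in Gh, had the highest Socs2 values of the 15, though pool 4 (10.70) was close to pool 2 (10.66). Whether Socs2 follows Gh in these pools was not tested. Stat5a and Stat5b fell in Prop1df/df (-0.47 and -0.54, adjusted p = 0.0247 and 0.0479), and these calls ended in 6 of 21 and 12 of 21 alternatives. Without single pools the adjusted p of Stat5a ran from 0.0122 to 0.0691 and that of Stat5b from 0.00918 to 0.125.

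**Figure D4:**
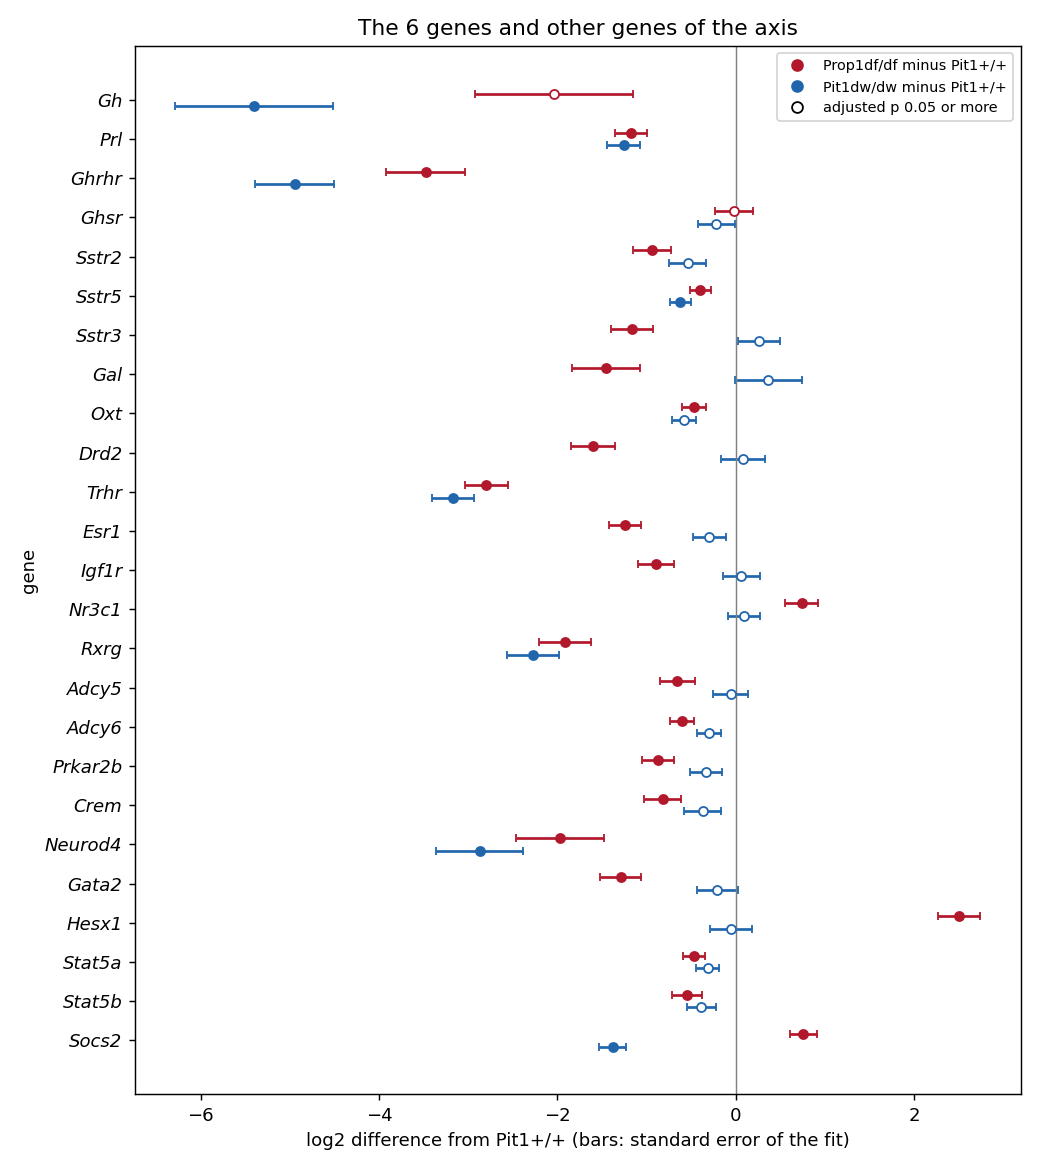
Log2 difference from Pit1+/+ (horizontal axis, with the standard error of the fit) of the 6 genes and of the other listed genes of the axis that passed in either comparison, 25 genes in all, for Prop1df/df and Pit1dw/dw, with open circles where the adjusted p was 0.05 or more. Gh, Ghrhr, Trhr, Rxrg and Neurod4 lie far to the left in Pit1dw/dw, and all of these but Gh passed as lower in Prop1df/df too. Drd2, Sstr3, Esr1 and Gata2 passed as lower in Prop1df/df and did not pass in Pit1dw/dw.

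The genes most like each member were found by the root mean square difference between mean-centred log2 values over the 15 pools, among 2424 other genes with an SD above 0.5. For Ghrhr they were Tshb (0.51), the IGF-binding-protein protease Pappa2 (0.64), Trhr (0.93) and Neurod4 (1.02). The same 4 genes were nearest to Gh, with Tshb at 1.03, Pappa2 at 1.49, Neurod4 at 1.49 and Trhr at 1.81. Pappa2 read 5.57, 7.35, 7.19, 5.12 and 5.07 in Prop1df/df pools 1 to 5. Its pool 1 was closer to pools 4 and 5 than to pools 2 and 3, as it was for Ghrhr. Because Pappa2 was picked for its likeness to Ghrhr, this is no separate support for that order. Neurod4 read 8.58, 9.45, 10.55, 7.27 and 7.91 in the same pools, and pool 3 lay inside the wild-type range of 10.27 to 11.04. For Prl the nearest were Sorl1 (0.27), Cd79a (0.31), Gpr165 (0.35) and 2010308F09Rik (0.36). Sorl1, a sorting receptor, is bright, at 8.68 ± 0.13 in Prop1df/df, 8.47 ± 0.09 in Pit1dw/dw and 9.80 ± 0.22 in Pit1+/+ (SD, n = 5 each). For Sstr2 the nearest were Galnt15 (0.31), Gmppa (0.32), Gper1 (0.33) and Arhgef33 (0.33). Ghsr and Sstr5 varied by less than the limit, with SDs of 0.34 and 0.31 over the 15 pools, and were not matched. The pools share the groups' differences, and this likeness is a description only.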

How the data were processed

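Per the submitters' processing notes, the authors processed the arrays with RMA, and the deposited values are log2 RMA signals, 1 per probe set and pool, with RMA settings not stated there. The table holds 45101 probe sets, 64 of them controls, which were left out, and 34945 name a single gene. For a gene the probe set brightest on average stood for it (18193 genes). A model with 1 mean per group used the 15 arrays together, in limma 3.58.1 under R 4.3.3 (lmFit, eBayes, two-sided), with Benjamini-Hochberg adjustment over all genes and a threshold of 0.05; a second fit kept all probe sets apart. A group whose mean lies below its arrays' median is called dim, and folds against it are lower bounds. Samples were grouped by title. The labels call the pools biological replicates. Named genes are the 6 genes, up to 6 listed genes per list that passed in any comparison, and the 4 nearest profiles. Tshb, Pax7, Prph, Xist and the markers Lhb, Fshb, Gnrhr, Nr5a1, Cga and Col2a1 were added after their values were seen. Members, lists and rule were chosen with earlier results of these data known. The fit was tested on simulated data. Alternatives were another centring, a second quantile step, probe set choices, dim filter, prior, weights, samples in the fit, replicate number, Prph pools, Xist and each pool left out. Promoters are RefSeq's (GRCm38.p6).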

Additional observations from a re-analysis of the deposited data

Results flagged for a closer look

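Single pools lay apart within some groups. Of 45 groups of 5 values searched, over the 9 probe sets of the 6 genes and 6 genes given beside them, 6 held such a pool, and chance marks about 1 in 20. Tshb, Prph and Xist were added after their values were seen and Gh counts with 4 probe sets, so this count cannot be set against that rate. Among the 6 genes there was 1: Ghrhr was 5.13 in Pit1dw/dw pool 2, where the next value was 4.69. Drd2 was 6.14 in Pit1dw/dw pool 1, against 6.78 or more in the other 4 pools. Prph was 10.59 in Pit1+/+ pool 3, where the next value was 3.74. Xist was 3.69 in Pit1+/+ pool 4 against 10.19 or more in the others. The Y-linked gene Eif2s3y was 5.85 in Prop1df/df pool 1 against 9.59 or more in its group, and 3.05 in Pit1+/+ pool 1 against 8.45 or more. The pools of Prop1df/df high and low in Gh did not meet this measure, which looks for 1 pool apart.

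The effect on Gh differed between the mutants by the test of the difference itself, 3.36 log2 units higher in Prop1df/df than in Pit1dw/dw, with the strain backgrounds differing as well. The call ended in 10 of 21 alternatives, and with Prop1df/df pools 2 and 3 at the top of the scale the difference may be understated.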

How the results depend on the processing

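The 6 genes in 3 comparisons gave 18 results, of which 11 kept direction and side of the threshold in every alternative run, and 340 of 381 single alternatives did so. Gh and Prl had no value when probe sets with an _x, _s or _a suffix were dropped, and Prl, Ghsr and Sstr5 none under the dim filter. Genes past the threshold numbered 140 in Pit1dw/dw against Pit1+/+, but 571 with array weights, 51 without the Prph pools and 83 to 161 without single pools. In Prop1df/df against Pit1+/+ they numbered 1920, but 4297 with array weights, 3350 as single probe sets and 1401 to 3258 without single pools (3258 without Pit1+/+ pool 5). In Prop1df/df against Pit1dw/dw they numbered 1139, but 2390 with array weights, 2254 as single probe sets and 746 without the Prph pools. The Sstr5 call in Pit1dw/dw ended with only the 2 groups compared (-0.62) and without the Prph pools (-0.68), with -0.69 to -0.56 without single pools. That in Prop1df/df ended as single probe sets and with only the 2 groups compared (both -0.40), without the Prph pools (-0.37) and with Xist (-0.38), with -0.46 to -0.35 without single pools. Gh in Prop1df/df against Pit1dw/dw lost its call with a trended robust prior and with only the 2 groups compared (both 3.36), without the Prph pools (3.56) and with Xist (3.26), with 2.89 to 4.16 without single pools. Ghrhr there gained one with array weights (1.81) and the replicate block (1.47), with 1.09 to 1.82 without single pools. Sstr2 in Pit1dw/dw gained one with array weights (-0.84). Signs turned for uncalled values: Ghsr in Prop1df/df against Pit1+/+ with array weights (0.11), without the Prph pools (0.0858) and between -0.2025 and 0.0822 without single pools, and Prl between the mutants with Xist (-0.0039) and between -0.044 and 0.1441 without single pools. The replicate numbers did not pair the pools: correlations of same-numbered pools' deviations ran from -0.309 to 0.674, and 2 of 5 pools matched best with their own number in each comparison. The cause of these changes was not tested. Of 33 calls of other listed genes, 20 held in all alternatives and none turned. Averaging a gene's probe sets shrank some further differences: Neurod4 to -1.83 and Socs2 to -0.91 in Pit1dw/dw against Pit1+/+, Adcy5 to -0.23, Crem to -0.26, Stat5a to -0.18 and Stat5b to -0.27 in Prop1df/df against Pit1+/+, and Sstr3 to -0.60, Esr1 to -0.46 and Igf1r to -0.20 in Prop1df/df against Pit1dw/dw.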
